A study of Mus musculus with 3 samples.

Results

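The cells described here are pericytes and other mural cells of the mouse retina, the cells that sit on the outside of the capillary endothelium. They were selected on measured transcripts in 3 single-cell libraries, and 79 were taken from 29084 cells that had 1000 UMIs or more and a mitochondrial share of 15% or less, of 33528 barcodes in all. A UMI (unique molecular identifier) marks 1 captured transcript. A mural cell had to hold at least 10 UMIs per 10000 UMIs over 8 mural markers (*Pdgfrb*, *Rgs5*, *Kcnj8*, *Cspg4*, *Des*, *Notch3*, *Abcc9* and *Acta2*), at least 3 of these markers, fewer than 5 per 10000 over 4 endothelial genes (*Cdh5*, *Pecam1*, *Tie1* and *Egfl7*) and fewer than 5 per 10000 over 3 microglial genes (*Cx3cr1*, *C1qa* and *Csf1r*). The study asked how loss of Norrin/β-catenin signaling, which underlies familial exudative vitreoretinopathy, alters cells of the growing retinal vasculature. All mice were C57BL/6, of both sexes, at postnatal day 6. The 1 WT library came from mice with intact alleles. The 1 *Tspan12* KO library came from *Tspan12* knockout mice. The 1 *Ctnnb1* cKO library came from *Ctnnb1* flox/flox mice with *Pdgfb*-iCreER, given tamoxifen daily after birth, a driver active in endothelial cells (ECs) and not directed at mural cells. Each library pooled retinas of several pups of a litter with the same genotype, the WT pups were not littermates of the knockout pups, and the beads used for enrichment bound CD31 and CD11b, which mark ECs and microglia.

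Pericytes share the basement membrane of the capillary with ECs, are recruited to sprouting vessels by endothelial PDGF-B acting on the receptor PDGFRβ, and stabilise the vessel wall. In the retina they cover capillaries densely and take part in the blood-retina barrier. Smooth muscle cells, the other mural type, wrap arterioles and carry the contractile apparatus of actin, myosin and tropomyosin.

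There were 11 mural cells in WT (0.117% of kept cells, exact Clopper-Pearson 95% interval 0.0586 to 0.21%), 42 for *Tspan12* KO (0.363%, 0.261 to 0.49%) and 26 for *Ctnnb1* cKO (0.32%, 0.209 to 0.469%). The WT interval lay below that of *Tspan12* KO and only just met that of *Ctnnb1* cKO. Set against ECs taken by a gate of the same kind, there were 2.04, 14.6 and 1.56 mural cells per 100 ECs in WT, *Tspan12* KO and *Ctnnb1* cKO, so the order of the libraries depended on the denominator. Bead enrichment of ECs and microglia can set both quantities. With 1 library per genotype, library and genotype cannot be told apart, no test between genotypes was possible, and every interval given here covers counting error only.

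The mural cells differed in depth between libraries. The lowest, median and highest totals were 4463, 10817 and 41958 UMIs in WT, 1897, 6308 and 83249 UMIs for *Tspan12* KO, and 1043, 2792 and 5902 UMIs in *Ctnnb1* cKO. The *Ctnnb1* cKO mural cells were the shallowest, and their median mitochondrial share was 0.268%, against 3.16% in WT and 3.16% in *Tspan12* KO. Summed over cells, mural transcripts came to 157404, 471985 and 74475 UMIs, of which the deepest single cell gave 26.7%, 17.6% and 7.92%. In *Tspan12* KO, 4 mural cells of 4204 to 83249 UMIs held more UMIs of another cell type's gene list than of the mural markers, and they gave 30.4% of the mural UMIs of that library. No mural cell of the other libraries did so, and several results are also given without these 4 cells. The deepest WT cell came near and was kept throughout most results. It held 46.0 UMIs per 10000 of Muller glia and progenitor genes and 32.4 of photoreceptor genes, against 52.2 of the mural markers. Scrublet scored 1, 5 and 0 of the mural cells as doublets. The libraries shared 37 (WT and *Tspan12* KO), 21 (WT and *Ctnnb1* cKO) and 36 (*Tspan12* KO and *Ctnnb1* cKO) barcodes, none of which was a mural cell in either library.

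**Figure D1:**
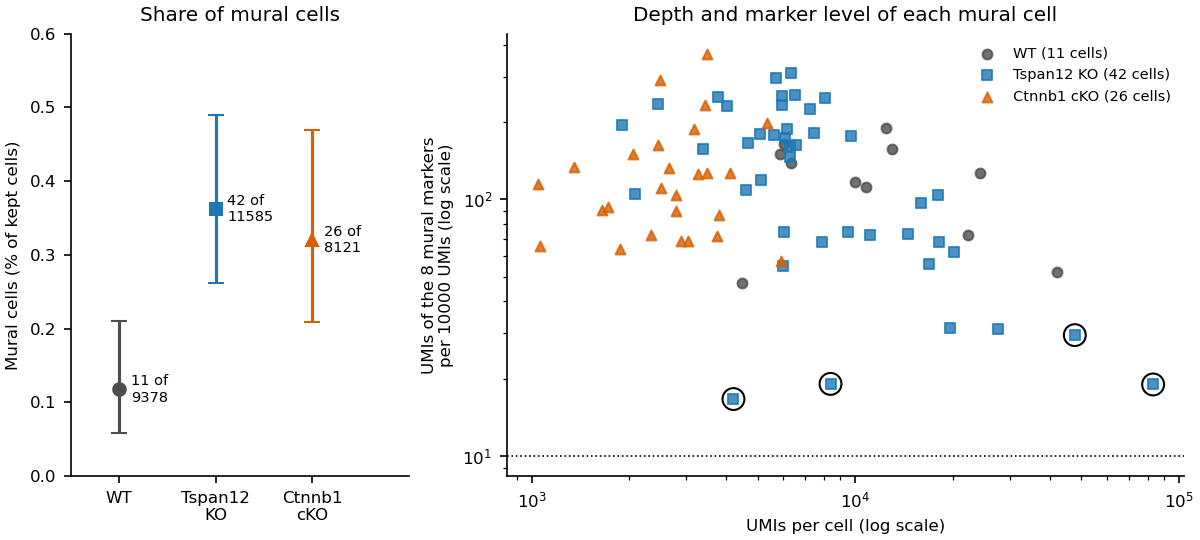
The left panel gives the mural cells as a percentage of kept cells in each library with exact Clopper-Pearson 95% intervals; the right panel has 1 point per mural cell, with total UMIs on the x axis and UMIs of the 8 mural markers per 10000 UMIs on the y axis (both log scales), rings around the 4 *Tspan12* KO cells with more UMIs of another cell type's list, and a dotted line at the limit of 10 per 10000. All *Ctnnb1* cKO cells sit at or below 5902 UMIs, while the deepest *Tspan12* KO cell reaches 83249 UMIs.

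The 8 markers that chose the cells are given as a description. The lowest, median and highest levels over these markers were 47.1, 127 and 190.2 per 10000 UMIs in WT, 16.7, 151 and 312 for *Tspan12* KO and 57.6, 113 and 369 for *Ctnnb1* cKO, so most members lay far above the limit. The member nearest to it, a *Tspan12* KO cell, had 16.7 per 10000, and the nearest cell left out with at least 3 markers, also from *Tspan12* KO, had 6.37 per 10000. The limits on other cells removed more: 179 cells passed the mural part of the rule, of which 73 were left out for endothelial genes alone, 17 for microglial genes alone and 10 for both. By library, 15, 72 and 92 cells passed that part in WT, *Tspan12* KO and *Ctnnb1* cKO, and 11, 42 and 26 stayed. The order of the libraries in share of kept cells therefore also depended on these limits. The member with most endothelial UMIs had 4.89 per 10000 and the nearest cell left out for them 5.02 per 10000, both from *Ctnnb1* cKO. Of the 79 members, 30 held 7 or 8 of the markers.

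*Rgs5*, a regulator of G-protein signaling and a defining pericyte transcript, was summed to 7293 CPM in WT, 6805 for *Tspan12* KO and 10326 for *Ctnnb1* cKO, with a lowest, median and highest cell of 3361, 9349 and 12620 CPM in WT, 477, 10953 and 26172 CPM for *Tspan12* KO and 2758, 7057 and 32073 CPM for *Ctnnb1* cKO. CPM is counts (UMIs) per 1000000 UMIs, here summed over the mural cells of a library unless single cells are named. *Pdgfrb*, the PDGF-B receptor, stood at 343 CPM in WT, 485 for *Tspan12* KO and 712 for *Ctnnb1* cKO. *Kcnj8* and *Abcc9*, which encode the pore and the sulfonylurea receptor of the vascular ATP-sensitive potassium channel, stood at 604 CPM in WT, 186 for *Tspan12* KO and 309 for *Ctnnb1* cKO and at 737 CPM in WT, 466 for *Tspan12* KO and 510.2 for *Ctnnb1* cKO, respectively. *Notch3*, the mural Notch receptor, was at 311 CPM in WT, 256 for *Tspan12* KO and 551 for *Ctnnb1* cKO, and *Cspg4*, the NG2 proteoglycan, at 127 CPM in WT, 163 for *Tspan12* KO and 389 for *Ctnnb1* cKO. *Des*, the muscle intermediate filament desmin, was at 216 CPM in WT, 93.2 for *Tspan12* KO and 107 for *Ctnnb1* cKO.

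*Acta2*, smooth muscle actin, was unevenly carried. Its sum of 928 CPM in WT, 642 for *Tspan12* KO and 591 for *Ctnnb1* cKO hid a wide spread: single cells ran from 0 to 8222 CPM in WT, to 3937 CPM in *Tspan12* KO and to 5753 CPM in *Ctnnb1* cKO. A single cell held 69.9% of the *Acta2* UMIs in WT, 23.4% for *Tspan12* KO and 45.5% for *Ctnnb1* cKO. The same WT cell carried all 5 WT UMIs of *Myh11*, the smooth muscle myosin heavy chain.

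Genes that the rule did not use marked the same cells. Among 2797 genes with at least 50 mural UMIs over the 3 libraries, 152 (5.43%) were over 4-fold higher in the mural sum than in all other kept cells of the same library, in each of the 3 libraries, on the scale log2(CPM + 5). All 13 of the 13 counted members of the pericyte list were among them (18 genes were listed), as were 6 of 8 contractile genes, 3 of 4 fibroblast genes, 7 of 11 ion channels and junction genes, 7 of 10 transcription factors and Notch targets, 5 of 10 receptors and 5 of 16 matrix genes. None of the counted immediate early genes (15), glycolysis and hypoxia genes (8), ferroptosis genes (6), photoreceptor genes (9) or further endothelial genes (3) was. Since the cells were chosen for their mural transcripts, these counts describe the selected cells.

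*Higd1b*, a gene enriched in pericytes, led the ranking. It stood at 1645 CPM in WT, 869 for *Tspan12* KO and 899.6 for *Ctnnb1* cKO, against 2.56, 2.77 and 6.28 CPM in all other cells of those libraries, and its lowest log2 ratio over them was 6.33. Among receptors, *Ednra*, the endothelin A receptor, had a lowest log2 ratio of 5.66. *Gucy1a1*, a subunit of the nitric oxide receptor guanylate cyclase, had 4.37, and *Tbxa2r*, the thromboxane A2 receptor, 4.57. Receptors for both constricting and relaxing signals were among the leading genes.

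Contractile genes in the leading 20 were *Myl9* and *Tpm2*. *Myl9*, the regulatory myosin light chain of smooth muscle, stood at 794 CPM in WT, 564 for *Tspan12* KO and 671 for *Ctnnb1* cKO (lowest log2 ratio 5.98, above that of each receptor), and *Tpm2*, a tropomyosin, had a lowest log2 ratio of 5.29. The cation channel *Trpc6* had 4.85. Of the transcription factors, *Prrx1* (4.75) and *Foxs1* (4.19) were in the leading 20. So were *Cd248*, which encodes endosialin (5.20), *Mgp*, matrix Gla protein (4.65), *Itga1*, the α1 subunit of a collagen-binding integrin (4.40), and the small heat-shock genes *Cryab* (4.60) and *Hspb2* (4.60). *Plac9*, *Pcdh18*, *Arhgap6*, *Vstm4* and *Ifitm1* also belonged to them.

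**Figure D2:**
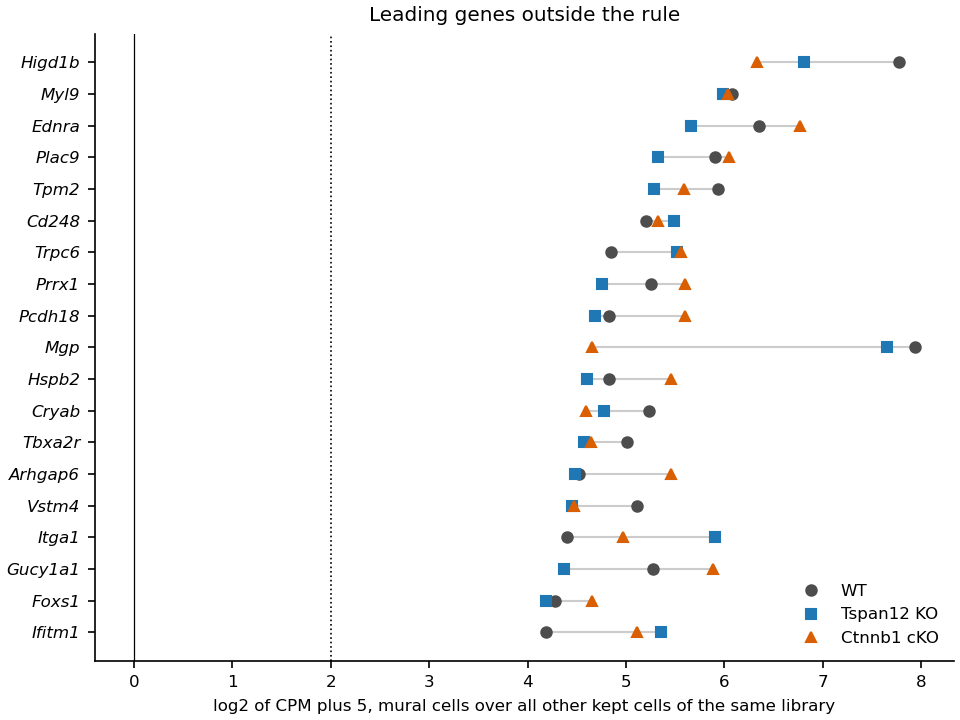
The log2 ratio of CPM + 5 in mural cells over all other kept cells of the same library (x axis) is shown for leading genes the rule did not use (y axis), with 1 point per library and a dotted line at 4-fold. *Higd1b* is at 6.33 or higher in each library and the last gene drawn, *Ifitm1*, at 4.19 or higher.

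Transcripts of other cell types were present in the mural cells, for some lists at levels near those of all other cells. Over 10 photoreceptor genes the mural sums were 1023 CPM in WT, 3437 for *Tspan12* KO and 161 for *Ctnnb1* cKO, against 3797, 5917 and 1778 CPM in all other cells of those libraries. Over 10 endothelial genes outside the rule they were 953 CPM in WT, 559 for *Tspan12* KO and 1047 for *Ctnnb1* cKO (other cells 1862, 665 and 2969 CPM), and over 10 microglial and macrophage genes 375 CPM in WT, 74.2 for *Tspan12* KO and 537 for *Ctnnb1* cKO (other cells 1051, 712 and 5958 CPM). Over 12 amacrine, horizontal and ganglion cell genes they were 413 CPM in WT, 633 for *Tspan12* KO and 376 for *Ctnnb1* cKO (other cells 1292, 1147 and 461 CPM). Over 7 astrocyte genes the mural sums were 31.8 and 40.3 CPM in WT and *Tspan12* KO (other cells 29.4 and 50.8 CPM). Erythrocyte genes summed to 38.1 CPM in WT, 27.5 for *Tspan12* KO and 67.1 for *Ctnnb1* cKO, against 1492, 1056 and 1882 CPM elsewhere. All 7 pigment cell genes were at 0 in WT and *Ctnnb1* cKO, as were all 7 astrocyte genes in *Ctnnb1* cKO. By cell, the photoreceptor genes ran at a lowest, median and highest level of 0, 2.68 and 32.4 per 10000 UMIs in WT, 1.38, 6.44 and 173 for *Tspan12* KO and 0, 0 and 9.72 for *Ctnnb1* cKO. The part that RNA of other cells had in the ratios below was not tested.

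**Figure D3:**
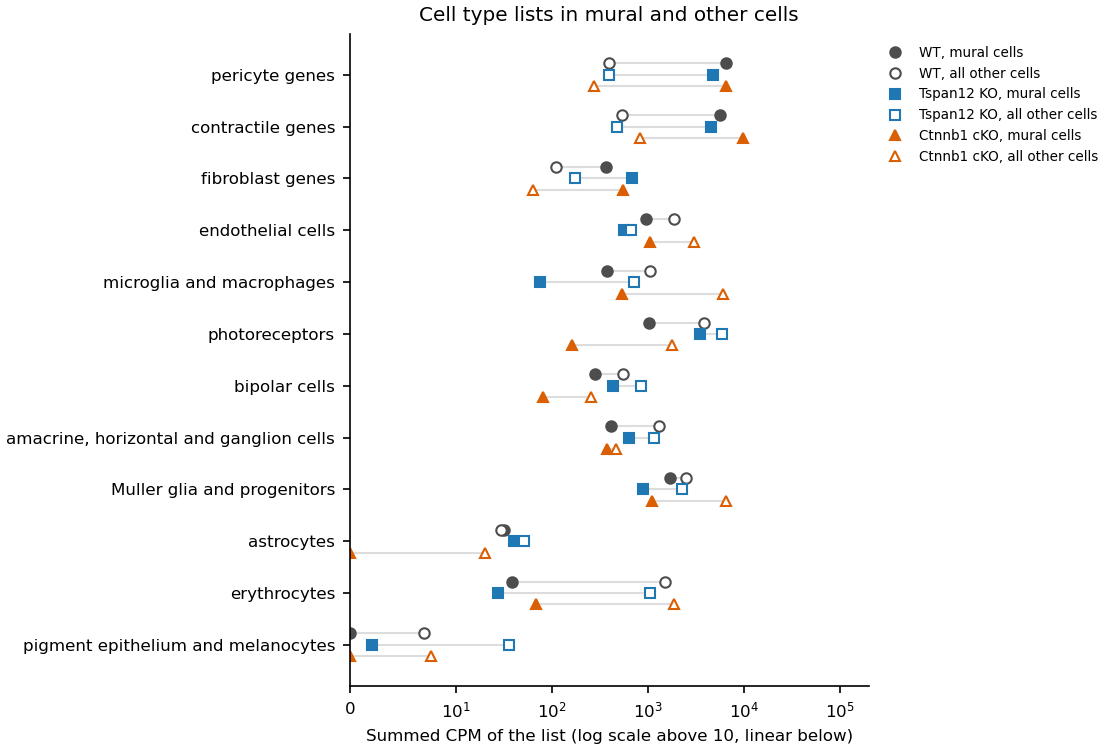
Summed CPM of each cell type's gene list (x axis, log scale above 10 and linear below) in mural cells (filled) and in all other kept cells of the same library (open), with 1 symbol per library and a line joining the pair. Pericyte and contractile genes lie higher in mural cells, and photoreceptor genes are at 3437 CPM in *Tspan12* KO mural cells, against 1023 CPM in WT and 161 CPM in *Ctnnb1* cKO.

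The mural cells varied among themselves in contractile transcripts. With each cell thinned to 1000 UMIs, at least 3 UMIs over *Tagln*, *Myh11*, *Cnn1*, *Myl9*, *Tpm2*, *Actg2* and *Lmod1* were found in 1 of 11 cells (9.09%, 0.23 to 41.3%) in WT, 6 of 42 cells (14.3%, 5.43 to 28.5%) for *Tspan12* KO and 6 of 26 cells (23.1%, 8.97 to 43.6%) for *Ctnnb1* cKO. The intervals overlapped. Without thinning the counts were 8, 34 and 14 cells, and no EC of 538, 288 and 1664 reached 3 such UMIs after thinning, which allows a share of up to 0.683%, 1.27% and 0.221%. This state is a range of a score, and no separate smooth muscle group is claimed. *Tagln*, transgelin, made up part of it, at 127 CPM in WT, 172 for *Tspan12* KO and 591 for *Ctnnb1* cKO, and 1 cell held 50%, 22.2% and 45.5% of its UMIs in the 3 libraries.

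Mitotic transcripts were found in 1 or 2 mural cells per library at equal depth and in more WT and *Tspan12* KO cells at full depth. With each cell thinned to 1000 UMIs, at least 3 UMIs over 17 G2/M genes were found in 1 of 11 cells (9.09%, 0.23 to 41.3%) in WT, 2 of 42 cells (4.76%, 0.582 to 16.2%) for *Tspan12* KO and 1 of 26 cells (3.85%, 0.0973 to 19.6%) for *Ctnnb1* cKO. Without thinning the counts were 3 cells (27.3%), 11 cells (26.2%) and 1 cell (3.85%). In ECs thinned in the same way the shares were 21.4%, 14.6% and 11.2%. *Kif11*, the mitotic kinesin at the centre of the study, was left out of that list, and it had 1, 11 and 1 mural UMIs in WT, *Tspan12* KO and *Ctnnb1* cKO, too few for a comparison.

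The targeted genes were checked first in the mural cells. *Tspan12*, a coreceptor of Norrin signaling, had 11 UMIs in WT and 22 in *Tspan12* KO, a log2 ratio of CPM of -0.58 (95% counting interval -1.69 to 0.61), which does not separate the libraries. *Ctnnb1*, which encodes β-catenin, had 22 UMIs in WT and 9 in *Ctnnb1* cKO (log2 ratio -0.21, -1.51 to 0.97). The driver is not directed at mural cells, so mural *Ctnnb1* does not check that label. In ECs the log2 ratio of *Ctnnb1* was -0.20 (-0.26 to -0.15) in *Ctnnb1* cKO, and that of *Tspan12* was -0.19 (-0.33 to -0.06) in *Tspan12* KO. Libraries of this kind count 3′ ends, and a transcript of a deleted allele can keep its 3′ end, so these counts are a weak check too.

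*Tspan12* KO mural cells were lower than WT mural cells in immediate early and inflammatory genes, while few or none of the counted pericyte, contractile and matrix genes were past 2-fold. Among 2527 genes with at least 50 UMIs over both libraries, 212 (8.39%) were over 2-fold higher and 112 (4.43%) over 2-fold lower in *Tspan12* KO, and the median log2 ratio of all genes was 0.08. Without the 4 cells named above, 1830 genes were counted, of which 59 were higher and 66 lower.

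Immediate early genes, which are transcribed within minutes of a stimulus, were over 2-fold lower for 9 of 15 counted members (18 listed), with a median log2 ratio of -1.16 (-0.85 without the 4 cells). Without these cells, 6 of 15 were over 2-fold lower, of which 5 were among the 9. *Fos*, a subunit of the AP-1 transcription factor, had a lowest, median and highest cell of 672, 2844 and 7639.7 CPM in WT and 0, 1001 and 6512 CPM in *Tspan12* KO. The cells overlapped, with 1 of the 11 WT cells above every *Tspan12* KO cell. Summed, *Fos* was at 2636 CPM in WT and 1144 CPM in *Tspan12* KO (log2 ratio -1.20, -1.39 to -1.02, with -0.21 in all other cells). Without the 4 cells, mural *Fos* was at -0.91 (-1.10 to -0.71), within 2-fold. ECs of *Tspan12* KO were also lower in *Fos* (-0.87, -0.92 to -0.83) and *Egr1* (-0.69, -0.75 to -0.63), so these decreases were not particular to mural cells. *Nr4a1*, a nuclear receptor of the same early response, had a log2 ratio of -2.48 (-3.19 to -1.80), *Zfp36*, which destabilises inflammatory mRNAs, -1.95 (-2.35 to -1.56), and *Egr1* -1.19 (-1.41 to -0.95). *Jund*, another AP-1 subunit, was at 0.12.

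All 3 counted inflammatory genes, of 12 listed, were over 2-fold lower in *Tspan12* KO. The chemokine gene *Cxcl1* stood at 419 CPM in WT and 74.2 CPM in *Tspan12* KO (log2 ratio -2.50, -3.13 to -1.89, and -2.06 without the 4 cells). Its decrease was larger in all other cells (-4.26) and in ECs (-3.47, -4.05 to -2.95), so it was not particular to mural cells. *Nfkbia*, the inhibitor of NF-κB, had a log2 ratio of -1.71. By cell, the list ran at a lowest, median and highest level of 2.24, 24.9 and 41.1 per 10000 UMIs in WT and 0, 3.83 and 21.9 in *Tspan12* KO. Among the 12 genes with the largest decreases were the transcription factors *Cebpb* (log2 ratio -2.84, -3.56 to -2.16) and *Cebpd* (-2.67, -3.23 to -2.12). The stress-response phosphatase subunit *Ppp1r15a* (-2.43) was another. In all other cells *Cebpb* was at -1.51 and *Cebpd* at -0.92, and in ECs they were at -0.67 and 0.21.

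*Rhoj*, a small GTPase, stood at 1817 CPM in WT and 225 CPM in *Tspan12* KO (log2 ratio -3.02, -3.35 to -2.69; all other cells -1.71). Its lowest, median and highest cell were at 0, 403 and 10626 CPM in WT, 0, 258 and 1000.3 CPM for *Tspan12* KO and 0, 518 and 1882 CPM for *Ctnnb1* cKO. The WT sum rested on 4 of the 11 cells, which held 5074 to 10626 CPM and lay above every mural cell of both knockout libraries, while the other 7 WT cells held 0 to 503 CPM. These 4 cells, singled out after their values were seen, had 5863 to 24240 UMIs. They were also the 4 WT cells highest in *Pde4b*, a cAMP phosphodiesterase (1264 to 2310.2 CPM, against 0 to 1106 in the other 7), and in *Adamts4*, a proteoglycan-cleaving protease (413 to 2899.5 CPM, against 0 to 302). Their *Rgs5*, at 8705 to 12286 CPM, lay within the range of the other 7 (3361 to 12620.2 CPM). The deepest of the 4 gave 43.0% of the WT *Rhoj* UMIs. It held 32.2 UMIs per 10000 of endothelial genes outside the rule, against a WT median of 5.64. None of the 4 held *Tagln* (0 to 385 CPM in the other 7), and their *Acta2* did not exceed 124 CPM (0 to 8222 CPM in the other 7). The ranges of the other 7 also began at 0, so neither gene set the 4 cells apart. *Adamts4* had a log2 ratio of -2.81 and *Pde4b* of -1.87 in *Tspan12* KO, and the WT sums of both take in these 4 WT cells. In *Adamts4* the 4 lay above every *Tspan12* KO cell, while in *Pde4b* 1 *Tspan12* KO cell lay above every WT cell. The *Rhoj*, *Adamts4* and *Pde4b* ratios without these 4 WT cells were not computed.

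Another large decrease rested on a single cell. *Hes5*, a Notch target of neural progenitors, had a log2 ratio of -3.58 (-4.63 to -2.65), but 1 WT cell held 93.8% of its WT UMIs, and without the cell with most *Hes5* UMIs in each library the ratio was -0.56.

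Among genes at least as high in *Tspan12* KO mural cells as in all other cells of that library, neuronal genes carried by few cells had large increases. *Asic2*, a proton-gated sodium channel of neurons, stood at 12.7 CPM in WT and 233 CPM in *Tspan12* KO (log2 ratio 4.20, 2.31 to 7.26), and 1 cell held 78.2% of its *Tspan12* KO UMIs. The same held for *Anks1b* (71.6%) and the receptor phosphatase *Ptprt* (64.7%), which had no UMI in WT. In each case it was the same cell. With it and the WT cell highest in the gene left out, the log2 ratio was 2.85 for *Asic2* and 2.91 for *Anks1b*, and with the cells scored as doublets left out 1.74 and 0.67. In *Tspan12* KO, mural *Asic2* and *Anks1b* were near the level of all other cells (223 and 139.9 CPM), and in WT below it (228 and 149 CPM). *H1f5*, a linker histone made in S phase, had a log2 ratio of 2.47, and 0.06 as a mean over cells. In *Tspan12* KO 1 cell held 47.4% of its UMIs, and in WT 1 cell held all 7. It stood at 2857 and 2724 CPM in 2 *Tspan12* KO cells, and the next highest cell was at 449 CPM. More widely spread increases were *Add1*, the membrane-skeleton protein adducin (44.5 CPM in WT and 172 CPM in *Tspan12* KO, log2 ratio 1.95, 0.84 to 3.31), *Brd3*, a bromodomain protein (2.59, 1.17 to 4.50), *Cpe*, carboxypeptidase E (1.61), and *Rps21*, a protein of the small ribosomal subunit (1.12, with 0.76 in all other cells). With 1 cell left out per library, the one with most UMIs of the gene, *Add1* was at 1.85 and *Brd3* at 2.67. Both were near the level of all other cells in *Tspan12* KO (169.7 and 136 CPM) and below it in WT (124 and 99.9 CPM), so they entered the ranking through *Tspan12* KO.

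Photoreceptor genes were over 2-fold higher in *Tspan12* KO for 8 of 9 counted members (10 listed), with a median log2 ratio of 1.86, but the difference rested on the 4 cells named above: without them 3 of these genes were still counted, with a median of -0.03. In all other cells the photoreceptor sum was 3797 CPM in WT and 5917 CPM in *Tspan12* KO.

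Of 12 counted pericyte genes none was over 2-fold higher and 1 over 2-fold lower (median log2 ratio -0.40). That gene was *Vtn*, vitronectin, at 394 CPM in WT and 121 CPM in *Tspan12* KO (log2 ratio -1.71, -2.25 to -1.16; without the 4 cells -1.21). None of the 8 contractile, 16 matrix, 10 receptor, 9 channel and junction and 10 transcription factor genes counted was past 2-fold in either direction (medians -0.30, -0.17, -0.47, -0.37 and -0.22). Without the 4 cells the medians of the pericyte, contractile and matrix genes were 0.02, 0.11 and 0.22, so no direction is read from them, and 1 pericyte and 2 matrix genes were then over 2-fold higher. Of 4 counted fibroblast genes 3 were over 2-fold higher, among them *Col1a2*, a chain of type I collagen (69.9 CPM in WT and 165 CPM in *Tspan12* KO, log2 ratio 1.24, 0.32 to 2.30), while *Col3a1*, the type III collagen chain, was at 0.55. Without the 4 cells, 2 of 3 counted fibroblast genes were over 2-fold higher. *Col4a1*, a chain of the type IV collagen of basement membranes, was at 2490.4 CPM in WT and 2139.9 CPM in *Tspan12* KO (log2 ratio -0.22; without the 4 cells 0.19).

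*Ctnnb1* cKO mural cells were higher than WT mural cells in several contractile and basement membrane genes, and lower in mitochondrially encoded genes. Among 722 genes with at least 50 UMIs over both libraries, 71 (9.83%) were over 2-fold higher and 129 (17.9%) over 2-fold lower in *Ctnnb1* cKO, and the median log2 ratio of all genes was -0.12. The *Ctnnb1* cKO mural cells gave 74475 UMIs in all, so fewer genes could be counted than for *Tspan12* KO.

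Of the 8 contractile genes counted (18 listed), 3 were over 2-fold higher and none lower, with a median log2 ratio of 0.32. *Tpm1*, the α-tropomyosin gene, had a lowest, median and highest cell of 47.7, 332 and 1209 CPM in WT and 0, 1445 and 7822 CPM in *Ctnnb1* cKO. The groups overlapped, with 14 of 26 *Ctnnb1* cKO cells above the highest WT cell. Summed, *Tpm1* stood at 381 CPM in WT and 2122 CPM in *Ctnnb1* cKO (log2 ratio 2.48, 2.04 to 2.93), against 0.58 in all other cells and 0.59 in ECs. With cells of 2 or more endothelial or microglial UMIs per 10000 left out, it was 1.69. *Tagln* had a log2 ratio of 2.22 (1.42 to 3.06; all other cells -0.51) and *Crip1*, a LIM-domain protein, 1.49 (1.10 to 1.90; other cells 2.19). *Myl9* was at -0.24 and *Tpm2* at 0.18, so contractile genes did not move together.

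Of the 12 matrix genes counted (23 listed), 3 were over 2-fold higher and 2 lower. *Col4a1* had a lowest, median and highest cell of 0, 3063 and 4815 CPM in WT and 2226, 6852 and 10204 CPM in *Ctnnb1* cKO, with 17 of 26 *Ctnnb1* cKO cells above the highest WT cell. Its sum was 2490.4 CPM in WT and 6499 CPM in *Ctnnb1* cKO (log2 ratio 1.38, 1.19 to 1.58). *Col4a2*, the partner chain of the same collagen, had a log2 ratio of 1.66 (1.37 to 1.94), and *Timp3*, an inhibitor of matrix metalloproteinases, 1.97 (1.27 to 2.70). All other cells of the library held higher ratios still for *Col4a1* (2.11), *Col4a2* (2.32) and *Timp3* (2.58). The lower genes were *Postn*, periostin (-1.64, -3.03 to -0.48), and *Serpinh1*, the collagen chaperone HSP47 (-1.35, -2.03 to -0.73). *Sparc* (0.67), *Nid1* (0.45) and *Bgn* (0.15) were within 2-fold.

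**Figure D4:**
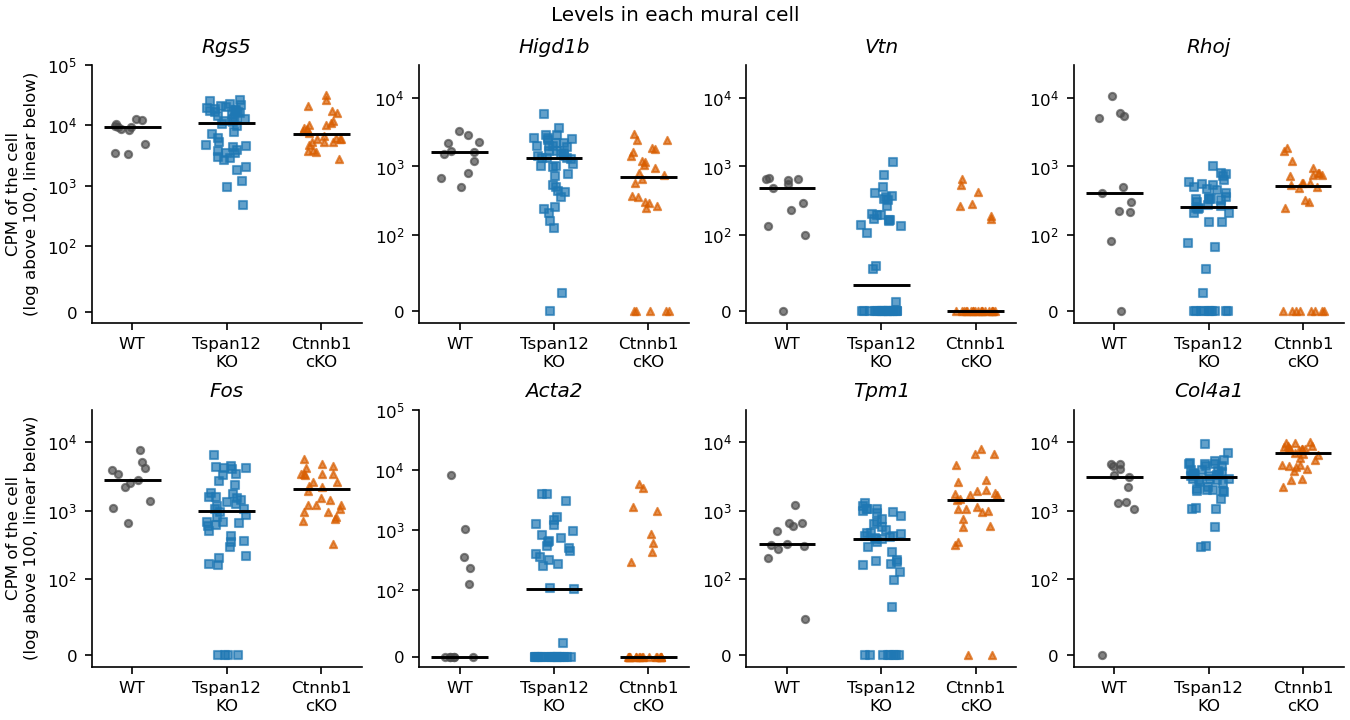
Each point is 1 mural cell, placed by library, for 8 genes, with the CPM of the cell on the y axis (log scale above 100, linear below) and a bar at the median. The 4 WT cells at the top of the *Rhoj* panel lie at 5074 CPM or higher, 1 WT cell stands out for *Acta2* at 8222 CPM, and the *Ctnnb1* cKO medians of *Tpm1* and *Col4a1* are 1445 and 6852 CPM.

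Of 8 pericyte genes counted in *Ctnnb1* cKO, 2 were over 2-fold higher and 1 over 2-fold lower (median log2 ratio -0.46). The higher genes were *Ifitm1*, an interferon-induced membrane protein (139.8 CPM in WT and 671 CPM in *Ctnnb1* cKO, log2 ratio 2.26, 1.51 to 3.06; other cells 2.30), and *Itga1* (1.01, 0.66 to 1.36; other cells 0.48). The lower gene was *Vtn* (394 CPM in WT and 121 CPM in *Ctnnb1* cKO, log2 ratio -1.70, -2.90 to -0.69). *Higd1b* was at -0.87 (-1.28 to -0.48) and *Ndufa4l2* at -0.78. Among receptors, *Ednra* was higher (483 CPM in WT and 1088 CPM in *Ctnnb1* cKO, log2 ratio 1.17, 0.70 to 1.64), and *Cdh2*, N-cadherin, lower (-1.24, -2.46 to -0.19). *Cacna1c*, the pore of the L-type calcium channel, had a log2 ratio of 1.54 (0.74 to 2.36), with -1.06 in all other cells. *Zic1*, a zinc-finger transcription factor, had 1.23 (0.44 to 2.02). With cells of 2 or more endothelial or microglial UMIs per 10000 left out, *Ednra* was at 0.67, *Itga1* at 0.38 and *Cdh2* at -0.62, all within 2-fold.

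The genes with the largest increases in *Ctnnb1* cKO were mostly shared with the rest of the library. *Rps29*, a protein of the small ribosomal subunit, stood at 947 CPM in WT and 7372 CPM in *Ctnnb1* cKO (log2 ratio 2.96, 2.70 to 3.23), with 3.44 in all other cells. *Rps28* (2.81; other cells 3.01), *Rpl35* (2.64; 3.09), *Rpl36* (1.94; 2.21), *Rpl37* (1.96; 2.73) and *Rpl37a* (1.95; 2.19) showed the same. The actin-sequestering *Tmsb10* was at 1.81 (other cells 1.85). *Malat1*, a nuclear noncoding RNA, was at 2.25 (2.15 to 2.36) in mural cells and 0.83 in all other cells.

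The decreases included the mitochondrial genome. *mt-Atp6*, a subunit of ATP synthase, stood at 6829.6 CPM in WT and 980.2 CPM in *Ctnnb1* cKO (log2 ratio -2.80, -3.16 to -2.46; other cells -2.54). *mt-Nd3* (-3.07), *mt-Cytb* (-2.33), *mt-Co3* (-2.13) and *mt-Nd2* (-2.07), which encode further subunits of the respiratory chain, were also lower, as was *Lars2*, the mitochondrial leucyl-tRNA synthetase (-3.01). The mitochondrial share of UMIs in mural cells, given above, moved with these genes, and whether depth or RNA quality had a part in them was not tested. *Fabp5*, a fatty acid-binding protein, was at 4180.3 CPM in WT and 1276 CPM in *Ctnnb1* cKO (log2 ratio -1.71, -2.04 to -1.40), against -0.08 in all other cells. *Cmss1* (-3.27), *Pebp1* (-2.71) and *Tpt1* (-1.63) completed the leading decreases together with *Pde4b* (-2.80, -4.05 to -1.78; other cells -0.50) and *Rhoj* (-1.83, -2.36 to -1.34; other cells 0.29). The *Rhoj* and *Pde4b* ratios take in the 4 *Rhoj*-high WT cells described above. The other 7 WT cells held 0 to 503 CPM of *Rhoj* and 0 to 1106 CPM of *Pde4b*. The highest *Ctnnb1* cKO cell held 1881 CPM of *Rhoj*. Ratios without these 4 WT cells were not computed.

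Of the immediate early genes in *Ctnnb1* cKO, 3 of 13 counted members were over 2-fold lower, a share near that of all genes, and none higher (median log2 ratio -0.42). *Btg2*, an antiproliferative early gene, had -1.75 (-2.34 to -1.20), while *Fos* was at -0.26 and *Junb* at 0.17. Of the interferon list only *Ifitm3* could be counted, at 1194 CPM in WT and 2860 CPM in *Ctnnb1* cKO (log2 ratio 1.26, 0.97 to 1.55; other cells 3.08). Glycolysis and hypoxia genes had 1 member over 2-fold higher and 1 lower of 5 counted: *Mt1*, a metallothionein (1.03), and *Pkm*, pyruvate kinase (-1.03). Under the same limit of 2 per 10000 they were at 0.61 and -0.20. None of the 4 counted ferroptosis genes in *Ctnnb1* cKO, nor of the 6 in *Tspan12* KO, was past 2-fold (medians -0.49 and 0.27).

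Signals exchanged with ECs were mostly below the count limit. Of 24 ligands, 4 could be counted in *Tspan12* KO and 1 in *Ctnnb1* cKO, none of them past 2-fold. *Ptn*, pleiotrophin, a heparin-binding growth factor, stood at 686 CPM in WT, 521 for *Tspan12* KO and 1195 for *Ctnnb1* cKO. *Pdgfa*, a ligand of the related receptor PDGFRα, was the ligand over 4-fold higher in mural cells than in other cells in every library, at 102 CPM in WT, 106 for *Tspan12* KO and 121 for *Ctnnb1* cKO. Of 24 Norrin and Wnt genes, 3 could be counted in *Tspan12* KO and none in *Ctnnb1* cKO. *Dkk2*, a secreted Wnt modulator, was over 4-fold higher in mural cells than in other cells in every library and stood at 38.1 CPM in WT, 46.6 for *Tspan12* KO and 322 for *Ctnnb1* cKO, on 6, 22 and 24 UMIs.

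Both comparisons share the WT library and its 11 cells, so their values are given side by side without a test of likeness. *Vtn* had log2 ratios of -1.71 and -1.70 in *Tspan12* KO and *Ctnnb1* cKO, *Rhoj* -3.02 and -1.83, *Tpm1* 0.01 and 2.48, *Col4a1* -0.22 and 1.38, and *Nr4a1* -2.48 and -0.43. The 4 WT cells high in *Rhoj* enter both of its ratios.

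**Figure D5:**
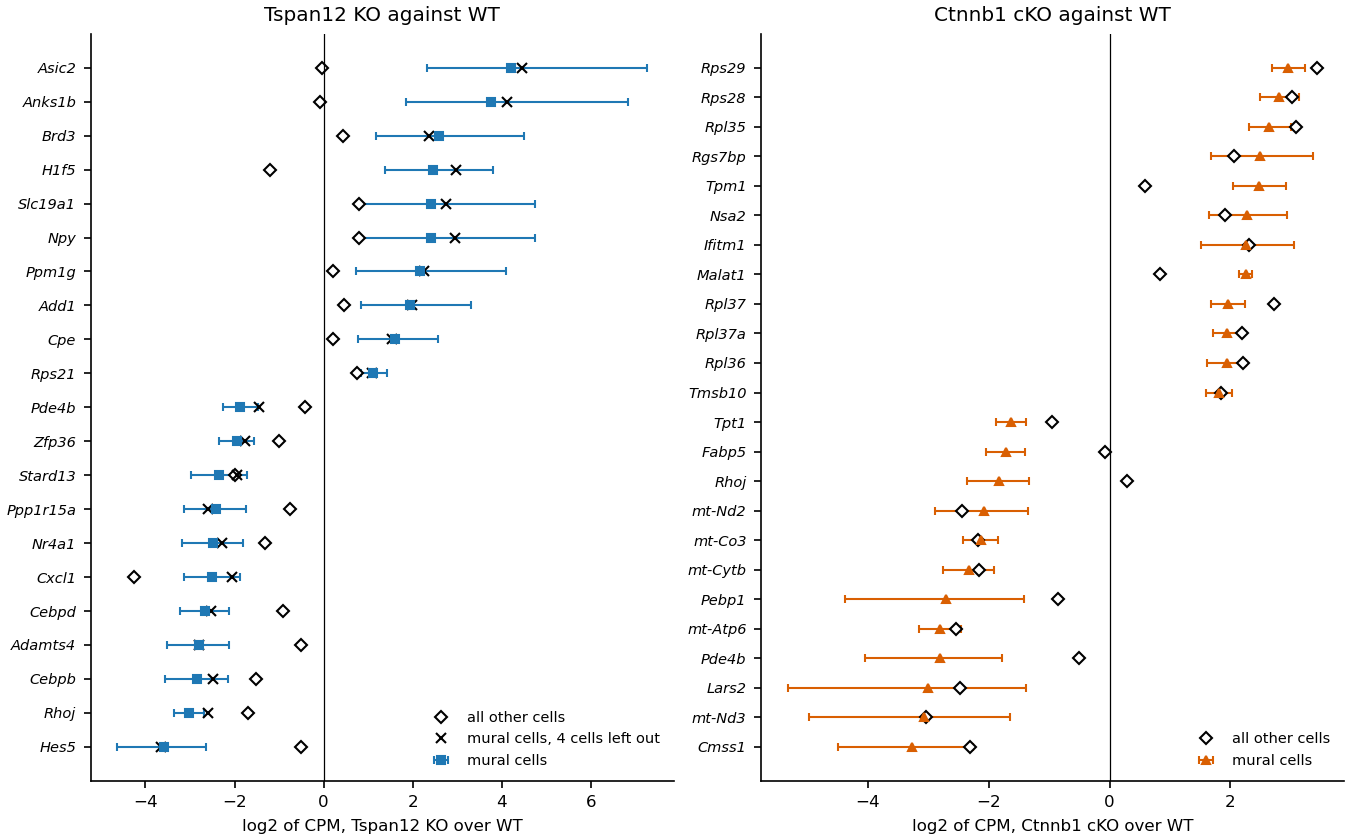
The log2 ratio of CPM against WT (x axis) is shown for genes with the largest differences in *Tspan12* KO and in *Ctnnb1* cKO (y axis), for mural cells with 95% counting intervals, for all other kept cells of the same libraries and, in *Tspan12* KO, with the 4 cells with more UMIs of another cell type's list left out; *Ptprt*, at 0 UMIs in WT, is not drawn. *Rps29* lies at 2.96 in mural and 3.44 in other cells of *Ctnnb1* cKO, *Tpm1* at 2.48 and 0.58.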

How the data were processed

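Retinal cells of mice at postnatal day 6 were measured by droplet 3′ single-cell RNA sequencing in 3 libraries, 1 per genotype. The deposited matrices hold raw UMI counts per gene and barcode for 33696 genes, which the authors made with Cell Ranger; the matrix headers name version 8.0.1 and the submitters' notes the build GRCm39, while the methods name another version and build, so no coordinates are given. The limits on depth and mitochondrial share and the thresholds for mural cells are those given above. The members and the 28 gene lists were chosen with earlier results of these data known. Mural UMIs were summed per library and scaled to CPM. Genes with at least 50 UMIs over the libraries compared were counted as past 2-fold (between libraries) or 4-fold (mural over other cells) on log2(CPM + 5). Ratios printed for single genes are of CPM without a pseudocount, with exact conditional binomial 95% intervals. Shares have exact Clopper-Pearson intervals. PCR duplicates are collapsed by UMIs, and intervals cover counting error only. For states, each cell was thinned to 1000 UMIs.

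Named genes were the 15 genes of the rule, the 20 genes leading the mural over other ratio, the 12 highest and 12 lowest per knockout library ranked by the interval bound nearest to 0 among genes at least as high in mural as in other cells of the library where they are higher, the extremes of each list, members whose role is described, and *Tspan12*, *Ctnnb1* and *Kif11*. *Rhoj*-high cells, *Myh11* and *Jund* were singled out after their values were seen. Endothelial cells were taken at 10 per 10000 over the 4 endothelial genes. A few named genes are not reported here. No column of another sample was present. Doublets were scored with Scrublet in scanpy 1.11.5 at an expected 0.8% per 1000 barcodes and were kept, with their removal as an alternative. The barcodes of highest score at that expected share were called doublets. TMM factors came from edgeR 4.0.16 in R 4.3.3, and the rest was done in Python 3.11.15 with numpy 2.4.6, pandas 2.3.3 and scipy 1.17.1. The ratios and intervals were run on simulated counts, drawn independently from the library sums without separate cells. That check cannot show how the intervals hold where few cells carry a gene. The alternatives were stricter selection limits, doublets or cells with more UMIs of another list left out, a mean over cells, TMM scaling, a pseudocount of 1, minimums of 20 and 100 UMIs per gene, and other depths and limits for the states.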

Additional observations from a re-analysis of the deposited data

Results flagged for a closer look

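For 9 of the genes reported here, the mural and the endothelial ratio against WT lay on opposite sides of 0, each with its 95% counting interval, and differed by at least 1 on the log2 scale. There is 1 library per genotype, so whether mural cells and ECs differ was not tested, and all values are log2 ratios of CPM.

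In *Tspan12* KO, *H1f5* (2.47 against -1.03) and *Ifitm1* (0.71 against -1.81) were higher in mural cells and lower in ECs. Both *Ifitm1* intervals had a bound close to 0, at 0.04 to 1.44 in mural cells and -4.18 to -0.09 in ECs. Lower in mural cells and higher in ECs were *Cebpd* (-2.67 against 0.21), *Fabp5* (-1.07 against 0.22), *Mt1* (-1.09 against 1.17) and *Ptn* (-0.40 against 0.94). 

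In *Ctnnb1* cKO, *Gja4* (0.97 against -0.75), *Itga1* (1.01 against -0.73) and *Trpc6* (0.87 against -1.80) were higher in mural cells and lower in ECs, while *Fabp5* (-1.71 against 0.37) was lower in mural cells and higher in ECs.

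*H1f5* in *Tspan12* KO had 47.4% of its UMIs in 1 mural cell, all 7 WT UMIs were in 1 cell, and as a mean over cells its ratio was 0.06. In *Tspan12* KO 2 mural cells held it at 2857 and 2724 CPM, and no other above 449 CPM. Without the 4 cells that held more UMIs of another cell type's list, *Fabp5* was at -0.75, *Mt1* at -0.74 and *Ptn* at -0.05 in *Tspan12* KO. As a mean over cells, *Mt1* was at -0.15 and *Ptn* turned to 0.27, and without the cell with most UMIs of the gene in each library *Fabp5* was at -0.41 and *Mt1* at -0.58. With endothelial and microglial genes under 2 per 10000, *Trpc6* in *Ctnnb1* cKO turned to -0.30, on the same side of 0 as in ECs, and *Itga1* and *Gja4* were at 0.38 and 0.47.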

How the results depend on the processing

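No paired analysis was possible because each group has 1 library. Between-library gene counts depended most on which cells and genes were admitted. In *Tspan12* KO, 2527 genes were counted in the main result. With at least 20 marker UMIs per 10000 and 4 markers, 97 of 2065 were over 2-fold higher and 70 lower. The counts were 59 and 66 of 1830 with the 4 cells left out. They were 707 and 285 of 5756 at a minimum of 20 UMIs per gene, and 68 and 46 of 1122 at 100. With endothelial and microglial genes under 2 per 10000, 358 of 2087 were higher. In *Ctnnb1* cKO, 220 were higher and 411 lower of 2194 counted at 20 UMIs, and 36 and 49 of 311 at 100. Under the limit of 2 per 10000, 32 were higher and 65 lower of 318 counted, against 722 counted without it. That limit also gave mural shares of 0.0533% in WT and 0.185% in *Ctnnb1* cKO. At 100 UMIs, 87 genes were over 4-fold higher in mural than in other cells. The number of genes that entered changed with each of these settings, so the counts are to be read against their totals. The cause of any further change was not tested.

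Contractile shares were 72.7%, 81% and 53.8% without thinning in WT, *Tspan12* KO and *Ctnnb1* cKO, and in *Tspan12* KO 39% at 2000 UMIs and 4.76% at 5 or more UMIs. The cycling share was 26.2% in *Tspan12* KO without thinning. It was 0% in WT under the limit of 2 per 10000, and 0% in *Ctnnb1* cKO under that limit, under the stricter marker limits, at 2000 UMIs per cell, at 5 or more UMIs and, as an alternative chosen after seeing the data, without the deepest mural cell of each library.

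In *Tspan12* KO the following log2 ratios changed sign. The photoreceptor median was -0.0316 with the 4 cells left out. Under the stricter marker limits, *Col4a1* was at 0.0414. Under the limit of 2 per 10000, *Crip1* was at -0.12, *Malat1* was at 0.78, *Cald1* was at -0.13 in *Ctnnb1* cKO and *Trpc6* was at -0.30 in *Ctnnb1* cKO. With the 4 cells left out, *Col4a1* was at 0.19, *Col4a2* was at 0.0498, *Gjc1* was at 0.0751, *Mgp* was at 0.12 and *Pkm* was at -0.23. As a mean over cells, *Col4a1* was at 0.20, *Ednra* was at 0.16, *Mgp* was at 0.16, *Myl9* was at 0.00773, *Pkm* was at -0.24, *Postn* was at 0.0429 and *Ptn* was at 0.27. Without the cell with most UMIs of the gene, *Myl9* was at 0.15. Leaving out the cell with most UMIs of the gene was also chosen after seeing the data. The ratios of *Rhoj*, *Cebpd*, *Nr4a1* and *Cxcl1* in *Tspan12* KO and of *Tpm1*, *Col4a1* and *Rps29* in *Ctnnb1* cKO kept their sign under every alternative run. No alternative left out all 4 of the WT cells high in *Rhoj*, so the *Rhoj* ratio without them was not computed. The small number of cells and the 157404 WT and 74475 *Ctnnb1* cKO mural UMIs limit what could be counted.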

Other observations

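Among genes outside the comparisons of the report, *Rgs7bp*, which anchors regulators of G-protein signaling, stood at 114 CPM in WT and 645 CPM in *Ctnnb1* cKO in mural cells (log2 ratio of CPM 2.49, 95% counting interval 1.69 to 3.36; all other cells 2.07), and at -1.17 in *Tspan12* KO (-0.77 without the 4 cells with more UMIs of another cell type's list). *Nsa2*, a factor of ribosome assembly, was at 2.28 (1.65 to 2.93) in *Ctnnb1* cKO, with 1.90 in all other cells. *Npy*, neuropeptide Y, was at 2.42 (0.78 to 4.74) in *Tspan12* KO and at 1.04 without the cell with most *Npy* UMIs in each library. In *Tspan12* KO, *Slc19a1*, the reduced folate carrier, was at 2.42 (0.78 to 4.74). *Stard13*, a GTPase-activating protein, was at -2.35 (-2.98 to -1.73, with -1.99 in other cells) in that library. *Gjc1*, the connexin 45 gene, belonged to the counted channel and junction genes above, and was at 0.62 (0.18 to 1.06) in *Ctnnb1* cKO.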
